A study of Mus musculus with 6 samples.

Results

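The epidermal differentiation complex is a cluster of genes that encode proteins of the outer layers of stratified squamous epithelium. Its members were taken by name from the table of gene counts: symbols that start with SPRR, LCE or S100A and a number, together with LOR, IVL, FLG, FLG2, HRNR, RPTN, TCHH, TCHHL1, CRNN, CRCT1, PGLYRP3, PGLYRP4 and SMCP, without symbols that end in -PS. This gave 63 of the 46937 symbols in the table. The rule reads names only, but it was set with earlier results of these data known. They fall into 21 late cornified envelope genes (LCE), 15 small proline-rich protein genes (SPRR), 14 S100A genes, 7 fused-type S100 genes and 6 others. All 63 matched the GENCODE M21 annotation of GRCm38 and lie on mouse chromosome 3 between positions 90511034 and 93564643, a stretch of 3.05 Mb.

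Total RNA had been sequenced from 6 biopsies of a mouse model of squamous cell lung carcinoma. The 3 control biopsies, called PSC, are labelled NSD3 WT. They carry Sox2OE, which overexpresses SOX2, Pik3caH1047R, which makes PI3K constitutively active, and Cdkn2a/bKO, the loss of CDKN2A/B. The 3 biopsies called PSCN carry all 3 alterations and in addition express NSD3T1242A, a mutant of NSD3, which methylates lysine 36 of histone H3. The promoter or Cre that drives these alleles and the ages of the mice are not given in the sources used here, and no label tells whether the biopsies are from different mice. A p-value here therefore reflects the spread between these 6 biopsies, which may be technical.

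In the skin, cells leaving the basal layer build a cornified envelope beneath the plasma membrane. Involucrin (IVL) and loricrin (LOR), the SPRR proteins and the LCE proteins are its precursors and are joined by transglutaminases, while filaggrin (FLG) and other fused-type S100 proteins bundle keratin or are cross-linked beside it. The S100A proteins are small calcium-binding proteins made by many cell types, so the complex joins genes of squamous differentiation with genes that other cells of a tumour also use. Normal lung lining is not cornified, and squamous carcinomas can keratinize.

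The start regions of 5 members that the results turn on are printed as examples, and single windows do not show what is typical of a subfamily. Each sequence is the RefSeq promoter window on GRCm38.p6, from 250 bases before to 50 bases after the annotated start of the gene, printed 5′ to 3′ on the strand of the gene. Capitals mark matches to the AP-1 motif TGANTCA, to the octamer ATGCAAAT (here met as its reverse complement ATTTGCAT) and to the TATA box TATAAA, each searched on both strands. SPRR1B (chr3:92438730-92439029, minus strand) and SPRR2K (chr3:92432332-92432631, plus strand) had the 2 highest fold changes of all members. SPRR2D (chr3:92338890-92339189, plus strand) had the highest level per length in PSCN, and LCE3A (chr3:92926181-92926480, minus strand) was the most abundant LCE gene. S100A8 (chr3:90668821-90669120, plus strand) is an example of the S100A genes, of which 4 of 11 windows hold TATAAA.

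SPRR1B: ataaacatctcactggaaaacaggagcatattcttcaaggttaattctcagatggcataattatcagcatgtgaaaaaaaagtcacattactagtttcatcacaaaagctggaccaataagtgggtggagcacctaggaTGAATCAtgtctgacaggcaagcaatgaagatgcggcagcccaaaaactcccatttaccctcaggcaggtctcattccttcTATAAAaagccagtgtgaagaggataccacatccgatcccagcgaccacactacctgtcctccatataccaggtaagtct
SPRR2D: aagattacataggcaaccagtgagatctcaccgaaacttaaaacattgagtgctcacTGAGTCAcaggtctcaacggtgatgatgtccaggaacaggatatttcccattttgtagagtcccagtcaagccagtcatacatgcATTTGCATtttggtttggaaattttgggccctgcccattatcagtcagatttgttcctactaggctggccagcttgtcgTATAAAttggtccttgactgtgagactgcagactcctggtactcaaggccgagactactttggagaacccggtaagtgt
SPRR2K: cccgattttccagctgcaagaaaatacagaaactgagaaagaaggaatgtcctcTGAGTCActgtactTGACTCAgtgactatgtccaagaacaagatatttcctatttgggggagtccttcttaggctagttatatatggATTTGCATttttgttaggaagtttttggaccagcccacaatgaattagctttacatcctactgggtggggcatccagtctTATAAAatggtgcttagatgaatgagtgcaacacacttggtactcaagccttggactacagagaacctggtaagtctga
LCE3A: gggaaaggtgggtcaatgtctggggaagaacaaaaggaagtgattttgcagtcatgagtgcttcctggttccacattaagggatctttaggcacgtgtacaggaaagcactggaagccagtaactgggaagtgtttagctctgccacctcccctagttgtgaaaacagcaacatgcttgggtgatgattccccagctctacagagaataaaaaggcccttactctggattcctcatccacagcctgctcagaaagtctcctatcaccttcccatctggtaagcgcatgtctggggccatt
S100A8: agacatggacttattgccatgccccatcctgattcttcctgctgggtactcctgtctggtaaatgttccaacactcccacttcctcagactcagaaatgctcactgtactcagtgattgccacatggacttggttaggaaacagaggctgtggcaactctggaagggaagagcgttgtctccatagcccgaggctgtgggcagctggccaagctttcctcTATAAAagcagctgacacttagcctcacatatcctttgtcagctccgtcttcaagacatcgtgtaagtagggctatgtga

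RefSeq gave such a window for 55 of the 63 members and for 27025 genes in all. The AP-1 motif was present in 18 of 55 members (32.7%) against 8.97% of all windows. It was found in 9 of 14 SPRR windows and 5 of 7 fused-type S100 windows, but in 2 of 11 S100A windows and 0 of 20 LCE windows. The octamer was present in 7 of 55 members (12.7%) against 1.97% of all windows, and all 7 were SPRR2 genes: SPRR2B, SPRR2D, SPRR2E, SPRR2F, SPRR2H, SPRR2I and SPRR2K. Those 7 share 1 layout, with an AP-1 match that starts 193 to 198 bases before the gene's start, the octamer 108 to 112 bases before it and TATAAA 29 bases before it. SPRR2K holds a further AP-1 match, at 182 bases before the start. The windows of SPRR2A1, SPRR2A2 and SPRR2A3 hold no octamer, and no AP-1 match or TATAAA either. Annotated exons of these genes span 2883 to 3003 bases, against 681 for SPRR2D. Whether their annotated starts are comparable with those of the other SPRR2 genes was not tested. TATAAA was present in 24 of 55 members (43.6%) against 15.7% of all windows. LCE3A holds none of these 3 motifs, and S100A8 holds TATAAA alone. These matches describe letters in a window of fixed length and are not measured binding sites. Of 6 other motifs searched, the grainyhead motif AACCGGTT was in 0 of 55 members (0.174% of all windows) and the CRE motif TGACGTCA in 0 of 55 (2.03%). The ETS core AGGAA was in 50 of 55 (90.9%, against 69.8% of all windows), among them 14 of 14 SPRR and 20 of 20 LCE windows. The CEBP, SOX and KLF motifs were in 10.9, 50.9 and 54.5% of members, against 12.2, 44.9 and 59.8% of all windows.

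Total counts ranged from 69563622 to 72807077 per library. NSD3 itself stood at 79.7, 96.7 and 101.7 CPM (read counts relative to the library's TMM-adjusted size) in PSC libraries 1, 2 and 3 and at 820.7, 917.8 and 1932 CPM in PSCN libraries 1, 2 and 3, so that each PSCN library lay above each PSC library. All values follow this order of libraries. PSC 3 stood apart from its group, with a mean correlation across genes of 0.908 with the other PSC libraries and 0.941 with PSCN, genes not being independent replicates. PSC 2 and PSC 3 had XIST at 1088 and 1034 CPM and the other 4 libraries at 0.89 to 2.4 CPM, so only the PSC group holds females. The labelled squamous identity was checked with 9 basal squamous markers (KRT5 among them), whose summed level was 513, 2358 and 7962 CPM (PSC) and 11069, 21912 and 9503 CPM (PSCN). The sum over 6 club cell markers (airway secretory cells) ran the other way, at 27297, 17993 and 2829 CPM (PSC) and 1922, 568 and 1475 CPM (PSCN). PSC 1 also held the heart gene MYH6 at 1294 CPM, against 0.204 to 9.26 CPM in the others. In a bulk biopsy, fewer cells of a type and less RNA per cell cannot be told apart.

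The share of all counts that fell on the 63 members was 0.115, 0.234 and 0.509% (PSC) and 1.19, 1.24 and 0.943% (PSCN). Their sum was 2749 ± 2033 CPM for PSC and 11937 ± 2104 CPM for PSCN (mean ± SD, n = 3). Every PSCN library lay above every PSC library, and within PSC the sum ran from 1081 CPM in PSC 1 to 5013 CPM in PSC 3. SPRR genes made up most of the PSCN sum, at 156, 1296 and 3286 CPM (PSC) and 10589.5, 9545 and 6512 CPM (PSCN). SPRR2A1 and SPRR2A2, which overlap and share most of their transcript sequence, held 119.5, 1110 and 1609 CPM (PSC) and 7942, 3524 and 3046 CPM (PSCN) of it. Reads that match both may have been counted for each, so the order of the PSCN libraries in the SPRR sum is not firm. The suprabasal squamous markers (KRT6B, KRT13, KRT4 and others, 10 measured) had a summed level of 133, 1121 and 5899 CPM (PSC) and 11656, 22046 and 9134 CPM (PSCN). In 9 of the 10 every PSCN library lay above every PSC library (15.2% of all genes tested), while KRT1 overlapped between groups. Among the 9 basal squamous markers every PSCN library lay above in 4. Basal and suprabasal marker sums were thus lowest in PSC 1 and highest in PSCN 2, as were the sums of LCE genes, and their part in the results on the complex was not tested.

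**Figure D1:**
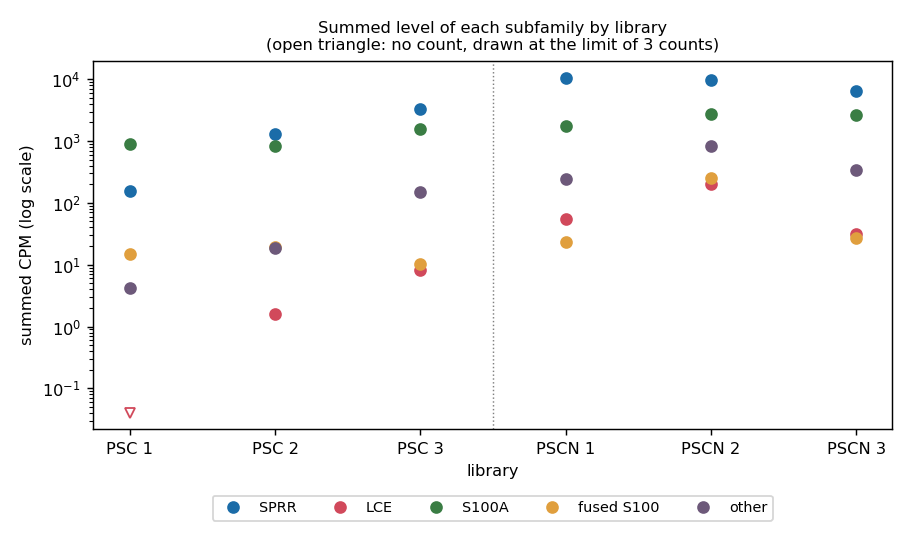
Summed CPM of each subfamily (vertical axis, log scale, an open triangle where no count was found, at the limit of 3 counts) in the 6 libraries (horizontal axis), 1 colour per subfamily. The SPRR sum runs from 156 CPM in PSC 1 to 10589.5 CPM in PSCN 1, while the S100A sum spans a narrower range, from 817 to 2753 CPM. SPRR2A1 and SPRR2A2 are both summed, though reads that match both may have been counted for each.

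Of the 63 members, 5 had no count in any library (FLG2, LCE1C, LCE1F, LCE1I and LCE1K) and 14 had too few counts to be tested, at most 60 in all 6 libraries together. The other 44 were tested with the quasi-likelihood test of edgeR over 21201 genes. Their log2 fold change of PSCN over PSC was positive in 40 (49.1% of all genes tested) and negative in 4 (HRNR, S100A1, S100A13 and TCHH), with a median of 2.43 against -0.01 over all genes tested. In 29 of the 44 every PSCN library lay above every PSC library, which was so for 15.2% of all genes tested, and in 0 of the 44 did every PSCN library lie below (13.4% of all genes). These counts describe the members that passed the filter. In 27 of the 44 all 3 PSC libraries alone reached its level of 10 counts at the median depth, while in 17 at least 1 PSC library did not, and for these the filter itself favours members that are higher in PSCN.

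No member passed an adjusted p of 0.05 in edgeR, in either direction, where 0.00472% of all genes were called higher and 0.0% lower; the lowest adjusted p of a member was 0.179, for S100A10. At an unadjusted p under 0.05, 21 members were higher (9.48% of all genes) and 1 was lower (12.2%). A Wald test of DESeq2 called 14 members higher (4.02% of all genes with an adjusted p) and 0 lower (8.2%) of 43 with an adjusted p. The authors' deposited table, also made with DESeq2, calls the same 14 genes higher, against 3.92% of its genes, and 0 lower (8.1%). They are LCE3A, LCE3B, LCE3C, LCE3D, LCE3E, LCE3F, S100A10, S100A11, SPRR1A, SPRR2B, SPRR2E, SPRR2H, SPRR2I and SPRR2K. The authors' deposited table gives no adjusted p for SPRR1B, RPTN and FLG. The DESeq2 fit made here gave these genes neither a p nor an adjusted p, so it could not call them. Each was highest in PSCN 2, with SPRR1B at 282 CPM there against 19.5 CPM in PSCN 1 and 26.2 CPM in PSCN 3. limma-voom with sample quality weights called 25 members higher (8.43% of all genes) and 1 lower (5.84%), and 0 without the weights. Whether a member passes therefore depends on the tool.

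The calls also moved with PSC 3. Without it, edgeR called 15 members higher (3.39% of all genes) and 1 lower, S100A1 (5.4%), of 45 tested, the median log2 fold change was 5.11, and of the 44 members 38 had every PSCN library above both PSC libraries left (27.7% of all genes) and 3 every PSCN library below (27.2%). With PSC 3 as the only PSC library, 0 members were called in either direction (0.0% of all genes each way), and the median was 1.44, with 44 of 47 positive. Among PSC libraries PSC 3 was the highest for 36 of the 44 members (81.8%, against 43.8% of all genes), and its level lay within the range of the PSCN libraries for 12 of them, below it for 31 and above it for 1. PSCN 2 was the highest of all 6 libraries for 28 of 44 members (63.6%, against 21.5% of all genes).

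**Figure D2:**
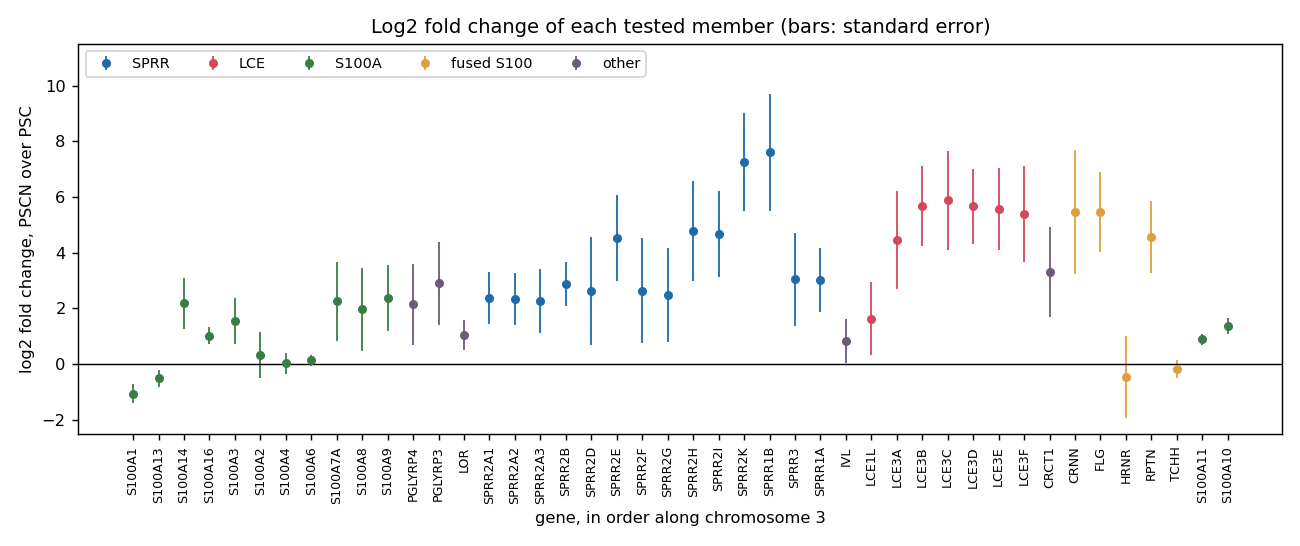
Log2 fold change of PSCN over PSC with its SE (vertical axis) for the 44 members tested, in their order along chromosome 3 (horizontal axis, not to distance), coloured by subfamily. The S100A genes at both ends lie between -1.07 and 2.38, the LCE3 genes between 4.45 and 5.88, and SPRR1B is the highest at 7.60.

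The SPRR genes code for short proline-rich proteins that bridge other envelope components. All 14 tested had a positive log2 fold change (49.1% of all genes tested), with a median of 2.95. In 12 every PSCN library lay above every PSC library (15.2% of all genes). SPRR1B, SPRR2E, SPRR2H, SPRR2I and SPRR2K fell short of the filter's level in PSC 1, so the filter itself favours higher PSCN levels for them. SPRR4, the other member, had 6 counts in all. None passed the edgeR test, with a lowest adjusted p of 0.187. Without PSC 3 the median was 6.50, and with PSC 3 as the only PSC library it was 1.62.

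SPRR1B and SPRR1A, on either side of SPRR3 near the end of the SPRR block, are induced in squamous differentiation of airway epithelium as well as in skin. SPRR1B (chr3:92436809-92438789) stood at 0, 0.119 and 1.57 CPM (PSC) and 19.5, 282 and 26.2 CPM (PSCN). It was absent or near 0 in PSC and highest in PSCN 2, without overlap, with a log2 fold change of 7.6 (SE 2.1, adjusted p = 0.19). SPRR1A (chr3:92483952-92485895) stood at 13, 25.2 and 206 CPM (PSC) and 407, 1148 and 421 CPM (PSCN), with a log2 fold change of 3.02 (SE 1.15, adjusted p = 0.214). PSC 3 came nearer to PSCN in SPRR1A than in SPRR1B. The ratio of SPRR1B to SPRR1A counts was 0, 0.00471 and 0.00761 (PSC) and 0.0478, 0.246 and 0.0622 (PSCN). The highest ratio in PSC was lower than the lowest in PSCN. Both windows hold AP-1 matches and a TATA box.

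SPRR3, found in the lining of the oral cavity and oesophagus more than in skin, stood at 0.837, 21.6 and 244 CPM (PSC) and 454, 1063 and 674 CPM (PSCN). Its log2 fold change was 3.04 (SE 1.68, adjusted p = 0.327). PSC 1 was nearly without it, and the spread within PSC was wider than the gap from PSC 3 to PSCN 1.

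The 11 SPRR2 genes lie in a row beside SPRR1B, and all 11 were tested, with a median log2 fold change of 2.63. SPRR2A1 was the most abundant by counts, at 64.1, 598 and 872 CPM (PSC) and 4341, 1916 and 1655 CPM (PSCN), with a log2 fold change of 2.37 (SE 0.94, adjusted p = 0.224). SPRR2A2 stood at 55.4, 512 and 737 CPM (PSC) and 3601, 1608 and 1391 CPM (PSCN). SPRR2A3 reached 20.8, 125 and 697 CPM (PSC) and 1120.0, 1581 and 1369 CPM (PSCN). The 3 do not overlap between groups. SPRR2A1 and SPRR2A2 cannot be measured apart: 94.2% and 94.6% of the 76-base stretches of their transcripts, 76 being the read length, also occur in another gene's transcripts, and their ratio (SPRR2A2 to SPRR2A1) stayed between 0.83 and 0.863 in all libraries. SPRR2A3 shares 47.0%, and its ratio to SPRR2A1 varied more: 0.325, 0.209 and 0.799 (PSC) and 0.258, 0.825 and 0.827 (PSCN). In PSC 3, PSCN 2 and PSCN 3 it was near 0.8, and in the others near 0.3 or less.

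SPRR2D, whose transcripts share 0.17% of such stretches with other genes, stood at 1.05, 4.78 and 379.9 CPM (PSC) and 483, 1239.5 and 628 CPM (PSCN). PSC 1 and PSC 2 held under 5 CPM while PSC 3 approached PSCN 1, and the log2 fold change was 2.61 (SE 1.94, adjusted p = 0.448). SPRR2F followed the same order within PSC, at 0.148, 3.48 and 93.2 CPM (PSC) and 75.4, 349 and 177 CPM (PSCN), and PSC 3 lay above PSCN 1. SPRR2G was the other SPRR gene with overlap, at 0.189, 1.9 and 39 CPM (PSC) and 27.7, 128 and 72.9 CPM (PSCN). The remaining SPRR2 genes were less abundant. SPRR2H stood at 0.0405, 0.633 and 8.54 CPM (PSC) and 24.7, 171 and 57.1 CPM (PSCN), with a log2 fold change of 4.78 (SE 1.79, adjusted p = 0.211). SPRR2B stood at 0.567, 2.57 and 5.83 CPM (PSC) and 23.9, 20.5 and 21.4 CPM (PSCN), the evenest PSCN group of the family, with a log2 fold change of 2.87 (SE 0.79, adjusted p = 0.189). SPRR2K stood at 0, 0 and 0.163 CPM (PSC) and 2.89, 18.9 and 3.78 CPM (PSCN), with a log2 fold change of 7.25 (SE 1.76, adjusted p = 0.187). SPRR2K had no count in PSC 1 or PSC 2, and was called higher by DESeq2, by limma-voom with weights and by edgeR without PSC 3.

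Per kilobase of exon, which allows genes to be compared, SPRR2D was the most abundant member in PSCN. Its level was 189 ± 319.6 in PSC and 1151 ± 589 in PSCN CPM per kb (mean ± SD, n = 3). SPRR1A was at 101 ± 134 in PSC and 817 ± 526 in PSCN CPM per kb, and SPRR3 at 72.8 ± 110.5 in PSC and 598 ± 252 in PSCN CPM per kb. SPRR2A1, with long annotated exons, was at 170.2 ± 137 in PSC and 878 ± 493 in PSCN CPM per kb. The spreads of these 4 overlap in PSCN, so their order there is not fixed by 3 libraries.

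The make-up of the SPRR pool differed between libraries of the same group. Of the summed SPRR level per kb, SPRR2A1, SPRR2A2 and SPRR2A3 together held 70.6, 85.9 and 38.6% (PSC) and 62.3, 23.9 and 37% (PSCN). Their share was highest in PSC 1, PSC 2 and PSCN 1. Reads that match both SPRR2A1 and SPRR2A2 may have been counted for each, which would raise this share. SPRR2D alone held 2.29, 1.44 and 27.4% (PSC) and 14.4, 25 and 22.7% (PSCN), and the ratio of SPRR2A1 to SPRR2D counts was 60.9, 125 and 2.29 (PSC) and 8.98, 1.55 and 2.63 (PSCN). In this share of SPRR2A genes PSC 3 (38.6%) was close to PSCN 3 (37.0%), while its share of SPRR1B (0.0927%) lay below that of every PSCN library. The 7 SPRR2 windows with an octamer include that of SPRR2D, and the windows of the 3 SPRR2A genes lack the octamer, AP-1 and TATAAA alike. Whether these letters bear on the shares was not tested.

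**Figure D3:**
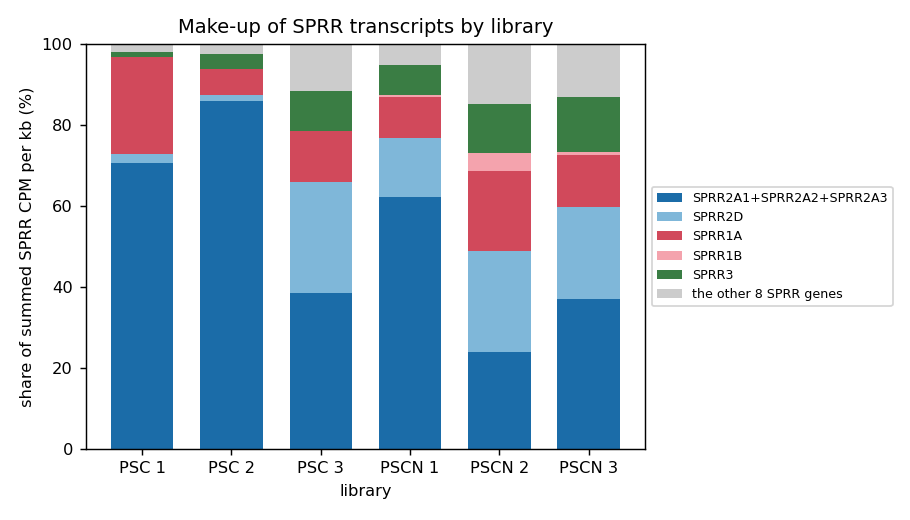
Share of the summed SPRR level per kb of exon (vertical axis, percent) held by groups of SPRR genes in each of the 6 libraries (horizontal axis). The SPRR2A genes hold 85.9% in PSC 2 and 23.9% in PSCN 2, and SPRR1B reaches 4.67% in PSCN 2 from at most 0.0927% in PSC.

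The LCE genes code for envelope proteins added late in cornification. All 6 LCE3 genes, the group found in skin after barrier injury, were tested, with a median log2 fold change of 5.62. In all 6 every PSCN library lay above every PSC library (15.2% of all genes). None had a count in PSC 1, so the filter itself favours LCE3 genes that are higher in PSCN. They were highest in PSCN 2 in each case. LCE3A was the most abundant, at 0, 0.924 and 5.26 CPM (PSC) and 25.7, 94.8 and 14.8 CPM (PSCN), with a log2 fold change of 4.45 (SE 1.77, adjusted p = 0.224). LCE3F stood at 0, 0.198 and 1.01 CPM (PSC) and 8.02, 38.1 and 4.65 CPM (PSCN). LCE3B reached 0, 0.185 and 0.545 CPM (PSC) and 8.66, 22.8 and 5.93 CPM (PSCN), with a log2 fold change of 5.67 (SE 1.44, adjusted p = 0.187). No LCE count at all was found in PSC 1, where a count of 0 allows up to 0.0405 CPM for a gene, counting error only.

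LCE3C stood at 0, 0.0396 and 0.572 CPM (PSC) and 5.64, 27.4 and 3.22 CPM (PSCN). LCE3E was at 0, 0.132 and 0.218 CPM (PSC) and 4.21, 11.7 and 0.977 CPM (PSCN). LCE3D had the lowest mean of the 6, at 0, 0.0264 and 0.136 CPM (PSC) and 1.82, 5.69 and 0.991 CPM (PSCN). Their log2 fold changes were 5.88, 5.57 and 5.67, none past the edgeR threshold, and all 6 LCE3 genes were past that of DESeq2. Transcripts of LCE3C, LCE3D, LCE3E and LCE3F share 27.9% to 45.5% of their 76-base stretches with another gene, so counts could be split among them. LCE3A held the largest share of the LCE level per kb wherever LCE genes were detected, with 59.1% and 66.0% in PSC 2 and PSC 3 and 48.0%, 48.5% and 48.7% in PSCN. The 3 PSCN libraries differed in the size of the LCE pool and hardly in this share.

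LCE1 genes, expressed in normal cornified skin, were almost silent. Of 14 only LCE1L was tested, at 0, 0 and 0.15 CPM (PSC) and 0.204, 0.17 and 0.0977 CPM (PSCN), with overlap between groups and a log2 fold change of 1.63 (SE 1.32, adjusted p = 0.487). The 14 LCE1 genes together had 0, 9 and 34 counts in PSC and 76, 80 and 42 in PSCN. LCE1H had 60 counts in all libraries together, LCE1A1 53 and LCE6A 3.

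The fused-type S100 genes encode large repetitive proteins of the granular layer and of hair. Of the 5 tested, RPTN, FLG and CRNN had every PSCN library above every PSC library (15.2% of all genes), and TCHH and HRNR overlapped. FLG and CRNN fell short of the filter's level in PSC 1, so the filter itself favours higher PSCN levels for them. RPTN (repetin) stood at 4.79, 3.08 and 2.38 CPM (PSC) and 11.2, 215 and 16.6 CPM (PSCN), with a log2 fold change of 4.57 (SE 1.3, adjusted p = 0.191). FLG (filaggrin) stood at 0.0135, 0.132 and 0.0409 CPM (PSC) and 0.569, 7.23 and 0.739 CPM (PSCN), with a log2 fold change of 5.47 (SE 1.44, adjusted p = 0.187). CRNN (cornulin, of upper oesophageal and epidermal cells) stood at 0, 0 and 0.586 CPM (PSC) and 1.14, 22.8 and 1.88 CPM (PSCN), with a log2 fold change of 5.45 (SE 2.23, adjusted p = 0.231). All 3 were highest in PSCN 2 by a wide margin, and the other PSCN libraries lay much nearer to PSC. The median of the 5 was 4.57 with all libraries and 1.98 without PSCN 2.

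TCHH (trichohyalin, of the hair follicle sheath) stood at 9.97, 15.8 and 7.38 CPM (PSC) and 10.5, 10.8 and 8.12 CPM (PSCN), with a log2 fold change of -0.17 (SE 0.33, adjusted p = 0.769). Its libraries overlapped, and the sign turned to 0.17 without PSC 2. HRNR (hornerin) stood at 0.27, 0.29 and 0 CPM (PSC) and 0.219, 0.185 and 0 CPM (PSCN), with no count in PSC 3 and PSCN 3 and a log2 fold change of -0.47 (SE 1.47, adjusted p = 0.865) that turned to 0.09 without PSCN 3. Of the other 2, FLG2 had no count and TCHHL1 had 4 in all.

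Involucrin and loricrin, the best known envelope precursors, had smaller log2 fold changes than any SPRR or LCE gene tested. IVL stood at 2.56, 3.84 and 12.4 CPM (PSC) and 9.83, 19.7 and 4.05 CPM (PSCN), with overlap between groups and a log2 fold change of 0.83 (SE 0.8, adjusted p = 0.554); with PSC 3 as the only PSC library it was -0.16. LOR stood at 0.648, 2.03 and 2.57 CPM (PSC) and 3.5, 3.15 and 4.14 CPM (PSCN), without overlap but all under 5 CPM, with a log2 fold change of 1.04 (SE 0.53, adjusted p = 0.3). Neither passed any of the tests run. CRCT1 (a cysteine-rich protein gene beside the LCE genes) was the most abundant of the others, at 0.837, 10.6 and 117 CPM (PSC) and 196, 757 and 305 CPM (PSCN), with a log2 fold change of 3.29 (SE 1.62, adjusted p = 0.286).

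The peptidoglycan recognition proteins PGLYRP3 and PGLYRP4 bind bacterial cell walls. PGLYRP3 stood at 0.0405, 0.383 and 4.14 CPM (PSC) and 4.59, 19.9 and 9.45 CPM (PSCN), without overlap, with a log2 fold change of 2.9 (SE 1.5, adjusted p = 0.303). PGLYRP4 stood at 0.135, 1.65 and 16.3 CPM (PSC) and 31.9, 35.9 and 12.1 CPM (PSCN), where PSC 3 exceeded PSCN 3, with a log2 fold change of 2.15 (SE 1.46, adjusted p = 0.409). SMCP, a sperm mitochondrial gene inside the complex, had 3 counts in all.

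**Figure D4:**
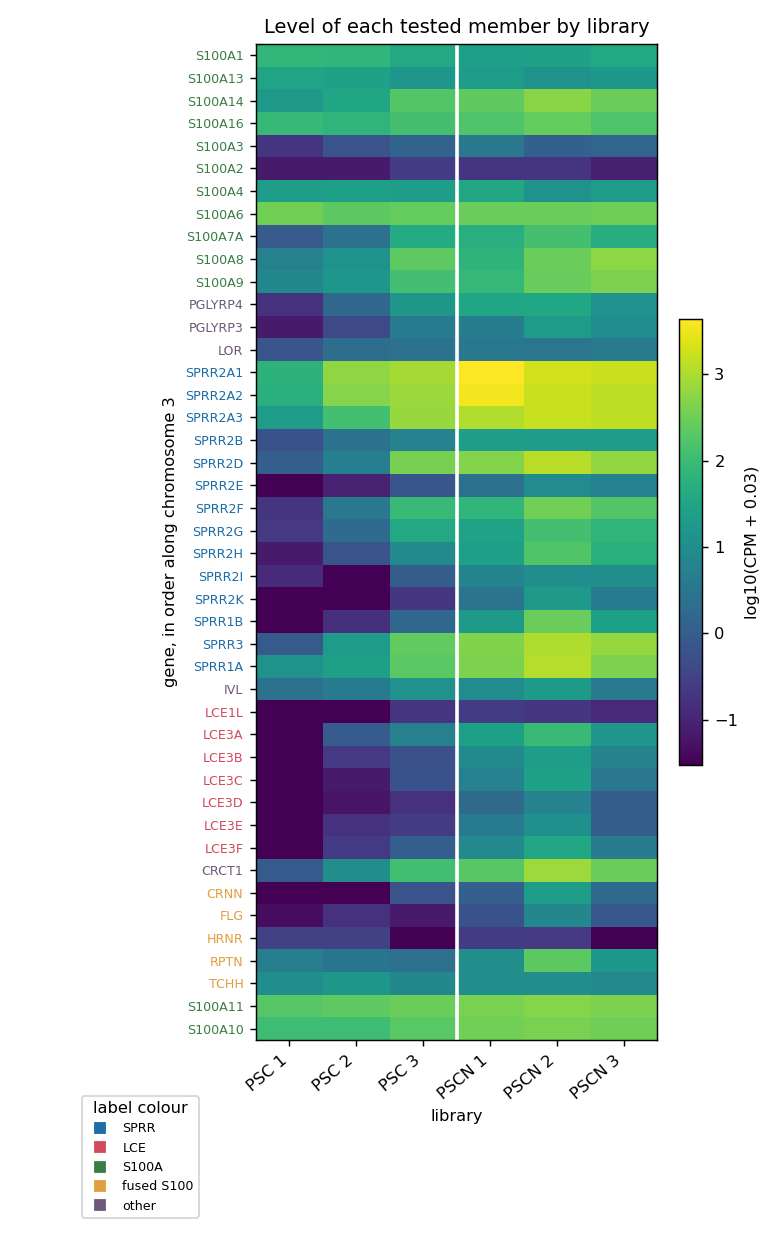
Heat map of the level of the 44 tested members (rows, in order along chromosome 3, label colour by subfamily) in the 6 libraries (columns), as log10 of CPM plus 0.03. The LCE3 rows are darkest in PSC 1, where no LCE count was found, and brightest in PSCN 2, while S100A6 and TCHH look alike in all 6 columns.

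The S100A genes had the smallest median log2 fold change of the subfamilies. Of 13 tested, 11 had a positive log2 fold change (49.1% of all genes), and the median of the 13 was 1.01. In 5 every PSCN library lay above every PSC library (15.2% of all genes). The median was 0.53 with PSC 3 standing alone for PSC, and 1.54 without PSC 3. S100A5, the other member, had 5 counts.

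S100A10, the partner of annexin A2 in a complex at the plasma membrane, stood at 109.9, 108 and 206 CPM (PSC) and 352, 406 and 327 CPM (PSCN). Its log2 fold change was 1.36 (SE 0.3, adjusted p = 0.179), the smallest adjusted p of the complex. S100A11, a partner of annexin A1 in the cornified envelope, stood at 202, 227 and 296 CPM (PSC) and 397, 509 and 425 CPM (PSCN), with a log2 fold change of 0.88 (SE 0.21, adjusted p = 0.187). In both genes each PSCN library exceeded each PSC library, and PSC 3 was the highest of PSC. S100A11 shares 37.6% of its 76-base stretches with other genes, foremost a pseudogene. Per kb it was the most abundant S100A gene on average, at 472 ± 95.1 in PSC and 868 ± 114 in PSCN CPM per kb.

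S100A14 and S100A16, both epithelial, also had no overlap. S100A14 stood at 18.5, 33.6 and 182 CPM (PSC) and 234, 533 and 298 CPM (PSCN), with a log2 fold change of 2.18 (SE 0.91, adjusted p = 0.237). S100A16 stood at 85.8, 71 and 133 CPM (PSC) and 163, 258 and 164 CPM (PSCN), with a log2 fold change of 1.01 (SE 0.31, adjusted p = 0.192). S100A14 was spread widely within PSC, with PSC 3 near PSCN 1, and S100A16 much less. S100A7A, of the psoriasin group raised in inflamed skin, stood at 0.864, 2.6 and 45.6 CPM (PSC) and 51.9, 132 and 49.8 CPM (PSCN) and likewise did not overlap, though PSC 3 came just below PSCN 3.

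S100A8 and S100A9 form calprotectin, which neutrophils hold in large amounts and which stressed keratinocytes also make. S100A8 stood at 5.34, 13.3 and 227 CPM (PSC) and 69.4, 303 and 580.5 CPM (PSCN), with a log2 fold change of 1.96 (SE 1.49, adjusted p = 0.459). S100A9 stood at 7.83, 15.2 and 127 CPM (PSC) and 80.3, 271 and 426 CPM (PSCN), with a log2 fold change of 2.38 (SE 1.19, adjusted p = 0.29). Both genes overlapped between groups through PSC 3, and both were highest in PSCN 3, unlike most SPRR and LCE genes. The ratio of S100A8 to S100A9 counts was 0.683, 0.872 and 1.79 (PSC) and 0.864, 1.12 and 1.36 (PSCN). Of 13 neutrophil markers 9 were tested, and 1 had every PSCN library above every PSC library (15.2% of all genes). Their summed level was 2425, 12415 and 20012 CPM (PSC) and 10874, 5712 and 11419 CPM (PSCN), carried mostly by LTF, which airway glands also make. Of its defining genes, CSF3R stood at 14.1, 27.4 and 73.5 CPM (PSC) and 49.9, 75.1 and 66.3 CPM (PSCN) and CXCR2 at 3.47, 8.71 and 25.9 CPM (PSC) and 10.1, 21.5 and 17.9 CPM (PSCN), while ELANE was at 0 in 5 libraries. CSF3R, CXCR2, MMP8, IL1R2 and TREM1 had their 2 lowest levels in PSC 1 and PSC 2, as S100A8 and S100A9 did. The list did not move together, since RETNLG was highest in PSC 1, NGP was highest in PSC 2, and LTF was higher in PSC 2 than in any PSCN library. The part of neutrophils in the levels of S100A8 and S100A9 was not tested.

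Negative values were found for 2 of the remaining S100A genes. S100A1, a calcium sensor of heart and skeletal muscle, was the only member with an unadjusted p under 0.05 in the lower direction, at 79.9, 74.8 and 38.3 CPM (PSC) and 24, 26.7 and 41.5 CPM (PSCN). Its log2 fold change was -1.07 (SE 0.35, adjusted p = 0.196), and PSC 3 lay below PSCN 3. The muscle markers summed to 1958, 54.1 and 5.83 CPM (PSC) and 15, 33.6 and 14.9 CPM (PSCN), and 10 ciliated cell markers to 1182, 539 and 82 CPM (PSC) and 102, 109 and 125 CPM (PSCN). The ciliated sum was high in PSC 1 and PSC 2, as S100A1 was. The sums over club cell, alveolar type 2 and endothelial markers were also highest in these libraries, and the muscle sum in PSC 1 alone. The part of these cell types in S100A1 was not tested. S100A13 also had a negative value, at 31.2, 26.5 and 15.5 CPM (PSC) and 20.8, 12.9 and 17.2 CPM (PSCN), with a log2 fold change of -0.52 (SE 0.32, adjusted p = 0.367); with PSC 3 as the only PSC library it was 0.11.

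S100A6, at 342, 219.7 and 263 CPM (PSC) and 302, 287 and 313 CPM (PSCN), had a log2 fold change of 0.13 (SE 0.2, adjusted p = 0.721) and overlapping groups. S100A4, a gene of fibroblasts and leukocytes, stood at 22.5, 24.9 and 22.5 CPM (PSC) and 38.1, 13.5 and 20 CPM (PSCN), with a log2 fold change of 0.03 (SE 0.38, adjusted p = 0.968) whose sign turned with upper quartile scaling (-0.04). It was highest in PSCN 1, where 8 fibroblast markers also summed highest, at 2916, 1470.3 and 3984 CPM (PSC) and 41539, 1856 and 1128 CPM (PSCN); that relation was not tested, and S100A4 overlaps a predicted gene, GM42674, with which it shares 44.7% of its 76-base stretches. S100A2 and S100A3 had log2 fold changes of 0.31 (SE 0.83, adjusted p = 0.841) and 1.53 (SE 0.83, adjusted p = 0.32), and that of S100A2 turned to -0.83 with PSC 3 as the only PSC library.

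**Figure D5:**
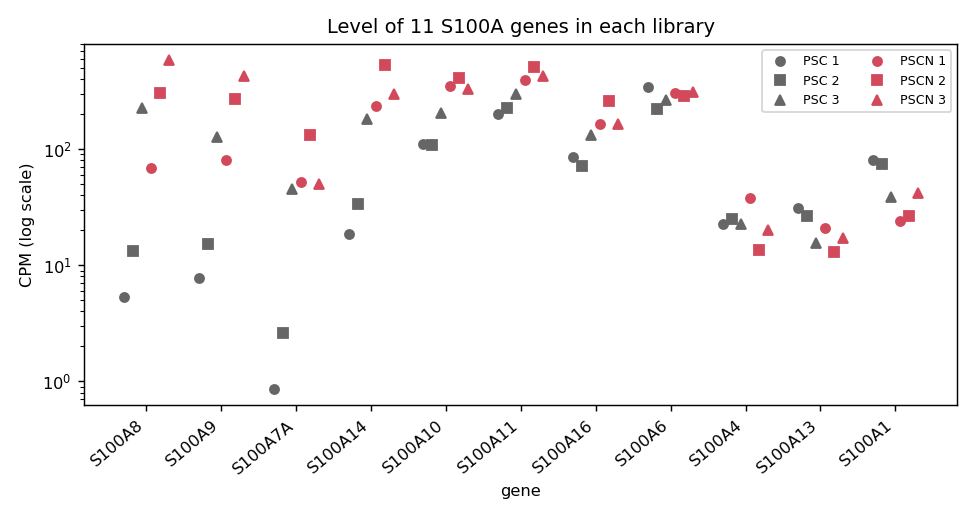
CPM (vertical axis, log scale) of 11 S100A genes (horizontal axis) in the 6 libraries, grey for PSC and red for PSCN, with the symbol giving the replicate. S100A8, S100A9 and S100A7A span more than 1 power of 10 within PSC, S100A10, S100A11 and S100A16 separate by group over a narrow range, and S100A1 has its 2 highest values in PSC 1 and PSC 2.

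Partners of the complex elsewhere in the genome were read from the same fit. Of 24 regulators of epidermal differentiation, transcription factors and the receptor NOTCH1 among them, 20 had a positive log2 fold change (49.1% of all genes). Their median was 0.99 against -0.01 over all genes, and 9 had every PSCN library above (15.2% of all genes). The 4 with the smallest p were KLF4, a factor of skin barrier formation, at 1.37 (SE 0.4), GRHL1, a grainyhead factor of desmosomal genes, at 1.6 (SE 0.49), MAF at 0.82 (SE 0.26) and the AP-1 subunit JUNB at 1.08 (SE 0.37). None passed the edgeR test, with a lowest adjusted p of 0.191. KLF4 stood at 93.7, 113 and 205 CPM (PSC) and 241, 484 and 341 CPM (PSCN), without overlap.

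Enzymes that cross-link or process envelope proteins had 17 of 17 positive values among those tested (49.1% of all genes), with a median of 2.34. In 11 every PSCN library lay above (15.2% of all genes). Of these, CASP14 and KLK7 fell short of the filter's level in PSC 1, so the filter itself favours higher PSCN levels for them. TGM1, the transglutaminase that joins envelope precursors, stood at 23, 62.4 and 223 CPM (PSC) and 387, 679 and 674 CPM (PSCN), with a log2 fold change of 2.5 (SE 0.84, adjusted p = 0.196). ALOXE3, a lipoxygenase of the lipid envelope, had 3.47 (SE 0.94), the protease KLK14 3.89 (SE 1.09) and the protease PRSS8 0.71 (SE 0.24). PRSS8 overlapped between groups, and the other 3 did not.

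Envelope and desmosome partners gave 11 of 11 positive values among those tested (49.1% of all genes), with a median of 2.19. In 9 every PSCN library lay above (15.2% of all genes). Of these, KRTDAP fell short of the filter's level in PSC 1, so the filter itself favours a higher PSCN level for it. SBSN (suprabasin) stood at 9.87, 13.2 and 22.6 CPM (PSC) and 123, 477 and 207 CPM (PSCN), with a log2 fold change of 4.14 (SE 0.64, adjusted p = 0.137). CDSN (corneodesmosin, which joins cornified cells) had 4.43 (SE 0.88), PPL (periplakin) 2.0 (SE 0.56) and KRT10 (a keratin of suprabasal epidermis) 2.54 (SE 0.8). As in the complex, none passed the edgeR threshold.

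Partners and receptors of S100A proteins had 4 positive values of 10 (49.1% of all genes) and a median of -0.18. In 2 of the 10 every PSCN library lay above (15.2% of all genes) and in 1 below (13.4%), shares near those of all genes. ANXA2, which binds S100A10, stood at 806, 857 and 1269 CPM (PSC) and 1778, 2319 and 2302 CPM (PSCN), with a log2 fold change of 1.13 (SE 0.28, adjusted p = 0.187). ANXA1, which binds S100A11, stood at 488, 1101 and 2238 CPM (PSC) and 2996, 3834 and 5027 CPM (PSCN), with a log2 fold change of 1.63 (SE 0.59, adjusted p = 0.205). Both annexins were higher in every PSCN library than in every PSC library, as their S100A partners were. EMB (embigin, a receptor of calprotectin) was lower in every PSCN library, with -1.14 (SE 0.26, adjusted p = 0.18). CACYBP, which binds S100A6, had 0.4 (SE 0.22) with overlap.

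Of the S100 genes and S100-binding genes located elsewhere, 3 were tested and 1 had a positive value, with a median of -0.44. S100B, of glial cells and some other cells, had -2.06 (SE 0.68), S100PBP -0.44 (SE 0.2) and S100G, an intestinal and renal calcium buffer, 0.54 (SE 0.7). S100PBP alone had every PSCN library below every PSC library.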

How the data were processed

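Strand-marking total RNA libraries had been read at 76 nt, per the labels' protocols. Per the submitters' processing notes, the authors used Trimmomatic, HISAT2, StringTie and DESeq2 on GRCm38, without versions. The sources used here do not tell whether counting used strand, and genes that overlap can therefore share counts. The deposited table holds the authors' estimated counts per gene symbol, already whole, and was tested as counts, as planned. A further table deposited by the authors holds the normalized mean signal of DESeq2, log2 fold changes, a test score (the Wald statistic) and p-values. Letter and number tied each table column to a label, a link that no label spells out.

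The count table was filtered with filterByExpr (21201 genes left), scaled by TMM and fitted in edgeR (version 4.0.16, under R 4.3.3), whose quasi-likelihood test was used (4 residual and 2.03 prior degrees of freedom), with Benjamini-Hochberg adjustment over all genes tested and a threshold of 0.05. Adjusted p-values are edgeR's unless another tool is named. SE is |log2 fold change| over the square root of F. With 3 libraries a group, the smallest two-sided p of an exact permutation test is 0.1, and none was run. Alternatives were RLE and upper quartile scaling, DESeq2 1.42.0, limma-voom (limma 3.58.1) with and without quality weights, other filters, a replicate block, sex as a covariate, PSC 3 as the only PSC library and each library left out. The fits were tested on simulated data.

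Members and gene lists were chosen with earlier results of these data known. By rule, values in every library are given for up to 8 of the most abundant SPRR, LCE and S100A genes each and for every tested fused-type and other member, and for each partner list up to 4 genes with the smallest p are named. SPRR2B, SPRR2G, SPRR2H, SPRR2K, S100A2, S100A3, S100A4, S100A7A, S100A13 and MYH6 were chosen after their values were seen. So were the motifs marked in the printed windows, out of the 9 searched. Intervals and limits for a count of 0 cover counting error only, since these reads carry no molecular identifiers.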

Additional observations from a re-analysis of the deposited data

How the results depend on the processing

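Of the 44 members, 29 lay above in PSCN without overlap under RLE, upper quartile and plain total scaling. With 1 library left out, 29 to 38 of the same 44 did (16.7 to 27.7% of all genes), and 0 to 3 lay below (15.3 to 27.2%), against 0 with all libraries. Calls moved with the tool. Members called higher numbered 0 with edgeR, 14 with DESeq2, 25 with weighted limma-voom and 0 to 15 with 1 library left out, and members called lower 0, 0, 1 and 0 to 1. Over all genes, 1 was called higher and 0 lower by edgeR, 904 and 1843 by DESeq2, 1788 and 1238 by weighted limma-voom, and 0 to 751 and 0 to 1195 with 1 library left out. Genes called higher numbered 0 in limma-voom without weights, 3 with a filter of 1 CPM in 3 libraries, 0 with sex as a covariate and 0 with PSC 3 as the only PSC library. The cause of these differences was not tested.

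The median log2 fold change of the members, 2.43, was 4.05 in weighted limma-voom, 6.26 with sex as a covariate and 1.88 to 5.11 with 1 library left out. All PSCN libraries are male, so the fit with sex compares PSCN with PSC 1, the only male PSC library. For SPRR genes (2.95) it was 5.88 with weighted and 5.45 with unweighted limma-voom, 9.09 with sex and 2.42 to 6.50 with 1 library left out. For LCE genes (5.57) it was 12.75 with sex. For S100A genes (1.01) it was 1.56 with sex, 0.53 with PSC 3 as the only PSC library and 0.73 to 1.54 with 1 library left out. For fused-type S100 genes (4.57) it was 1.98 to 5.10 with 1 library left out, and for the others (2.15) 7.61 with sex, 0.7 with PSC 3 as the only PSC library, 4.06 and 3.93 with weighted and unweighted limma-voom, 4.12 with the replicate block and 1.57 to 4.91 with 1 library left out.

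With the replicate block, 0 genes were called higher and the SPRR median was 5.67. Libraries of the same number correlated, in their deviations from the group means across genes, at 0.186, -0.053 and 0.016. Not every one correlated best with its own number. The labels do not tell whether such libraries were paired, and with 3 libraries a group these values cannot decide it. Signs turned for S100A6 (0.13, but -0.19 with sex and -0.01 to 0.32 with 1 library left out, lowest without PSC 2), TCHH (-0.17, but -0.38 to 0.17 with 1 library left out, highest without PSC 2, and 0.39 with PSC 3 alone), HRNR (-0.47, but -1.04 to 0.09 with 1 library left out, highest without PSCN 3, and 6.24 with PSC 3 alone), and, with PSC 3 alone, IVL (-0.16), S100A13 (0.11) and S100G (-0.01). The log2 fold change of S100A2 (0.31) was -0.83 with PSC 3 alone and -0.07 to 0.64 with 1 library left out, lowest without PSC 2 and also negative without PSC 1. The log2 fold change of S100A4 (0.03) was -0.04 with upper quartile scaling, -0.2 and -0.09 with weighted and unweighted limma-voom, -0.1 with the replicate block and -0.47 to 0.27 with 1 library left out, lowest without PSCN 1. The log2 fold change of CACYBP was -0.02 with PSC 3 alone. Among single genes, 953 other values were on the same side of the threshold with the same sign and 106 passed it only under an alternative. Members under 1 CPM, most LCE1 genes among them, are limited by depth. A fit with PSC 3 alone takes its spread from PSCN only.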

Other observations

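Within the same stretch of chromosome 3 the table holds 56 other symbols, of which 15 were tested. All 15 had a positive log2 fold change (49.1% of all genes tested), with a median of 0.94. In 7 of them every PSCN library lay above every PSC library (15.2% of all genes tested). Of the 7, MIF-PS3 fell short of the filter's level in every PSC library, and SPRR2J-PS and GM37428 did so in PSC 1. For these the filter itself favours higher PSCN levels. SPRR2J-PS, left out of the members as a pseudogene by its symbol though the annotation lists it as protein coding, had a log2 fold change of 4.73 (SE 1.56), close to those of SPRR2H and SPRR2I, and MIF-PS3, a processed pseudogene in the annotation, had 2.36 (SE 0.53) at under 1 CPM. GM5850 had 0.94 (SE 0.28) and RPLP0-PS1 1.95 (SE 0.65), and 0 of the 15 passed the edgeR test. Reads shared with a parent gene elsewhere could fall on such pseudogenes, which was not tested.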
